A study of Homo sapiens with 16 samples.

Results

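The Notch genes described here are 10 genes of the Notch signalling pathway: the receptors NOTCH1, NOTCH2 and NOTCH3, the ligands JAG1, JAG2, DLL1 and DLL3, and the transcription factors HES1, HES6 and HEY1. They were chosen by symbol from a table of 63187 genes, with no use of their measured values in the rule. All 10 were found and all 10 passed the low-count filter, which left 19530 genes for testing. The data were RNA-seq estimated counts from 16 libraries, 4 in each of 4 groups, all from the human neuroblastoma line SK-N-BE(2). WT is the label of cells with no HIF-2α construct named, and FL, NCTAD and cIDR are cells transfected with full-length HIF-2α or with the forms that the study design writes as ΔN-CTAD and Δc-IDR. HIF-2α, encoded by EPAS1, is an oxygen-regulated transcription factor. Oxygen was 21% and serum 10% for all groups. Stranded mRNA libraries selected on poly(A) took about 250 ng of RNA and 13 PCR cycles.

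The labels do not give the vector, the time after transfection, the residues removed, or whether WT cells received an empty vector. An effect of transfection and an effect of HIF-2α therefore cannot be told apart in any comparison with WT. The labels name the line SK-N-BE(2), whereas the library names read BE2c and call FL WT and WT CTRL. The grouping follows the labels. Each group has replicates 1 to 4, and the labels give the same number as a batch, so each batch holds 1 library of every group. What differed between batches is not stated, and nothing says that replicates were separate cultures, so p-values measure the spread between these libraries only.

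Notch receptors are single-pass membrane proteins that are activated by ligands on a neighbouring cell. Ligand binding exposes the receptor to cleavage by ADAM proteases and then by γ-secretase, which frees an intracellular fragment that enters the nucleus, joins the DNA-binding protein RBPJ and a Mastermind coactivator, and switches on genes such as HES1 and HEY1. HES and HEY proteins repress transcription, among others of factors that drive neuronal differentiation, while DLL3 is a divergent ligand that acts mainly inside the cell that makes it, and HES6 is a family member known to oppose HES1. In the developing sympathetic nervous system, from which neuroblastoma arises, the pathway is known for holding back neuronal differentiation.

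The promoters of the 3 genes that turn out to stand furthest apart between batches are shown for reference, as the 250 bases before the RefSeq start in build GRCh38.p14, 5′ to 3′ on the gene's strand. HES1 (chr3:194135898-194136147, plus strand) is the textbook Notch target. Capitals in it mark TGGGAA, the core of the RBPJ site. In NOTCH3 (chr19:15200996-15201245, minus strand) and JAG2 (chr14:105168777-105169026, minus strand) capitals mark GCGTG or its reverse complement CACGC, one form of the core of the HIF site.
HES1: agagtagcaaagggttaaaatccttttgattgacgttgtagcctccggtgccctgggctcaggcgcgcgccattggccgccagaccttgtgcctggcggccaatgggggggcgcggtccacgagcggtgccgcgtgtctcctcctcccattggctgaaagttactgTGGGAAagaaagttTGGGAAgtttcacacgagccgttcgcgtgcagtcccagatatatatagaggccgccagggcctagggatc
NOTCH3: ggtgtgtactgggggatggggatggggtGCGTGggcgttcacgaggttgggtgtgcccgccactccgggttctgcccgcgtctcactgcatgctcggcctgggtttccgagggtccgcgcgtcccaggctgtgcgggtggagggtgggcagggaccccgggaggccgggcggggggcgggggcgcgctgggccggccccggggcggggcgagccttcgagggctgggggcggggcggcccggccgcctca
JAG2: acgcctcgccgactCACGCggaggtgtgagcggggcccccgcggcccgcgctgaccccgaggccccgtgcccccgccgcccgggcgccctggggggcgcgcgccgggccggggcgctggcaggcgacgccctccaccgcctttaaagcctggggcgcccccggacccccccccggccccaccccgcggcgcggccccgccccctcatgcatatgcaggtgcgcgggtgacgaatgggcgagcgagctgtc
The HES1 window held 2 TGGGAA matches on the plus strand, which began 84 and 70 bases before the start. Of 35116 RefSeq promoter windows of the same length searched on both strands, 20.8% held TGGGAA and 2.90% held at least 2 matches. HES1 also held 2 matches of CACGAG, present in 5.58% of all windows, and 1 of CACAAG, present in 10.0% of them. Both are N boxes, the class of site that HES proteins bind, and NOTCH3 held 1 CACGAG match as well. GCGTG, present in 32.2% of all windows, was matched 2 times in HES1, 1 time in NOTCH3, 1 time in JAG2, 2 times in NOTCH1 and 3 times in JAG1. ACGTG, the other form searched, was found in 18.5% of all windows and among the Notch genes only in JAG1, with 1 match. CACGTG, an E box that contains ACGTG, was in 6.34% of windows and in none of the 7 genes looked up, which were HES1, HES6, JAG1, JAG2, NOTCH1, NOTCH2 and NOTCH3. A match describes the letters in the window and is not a bound site.

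Before the Notch genes were compared, the libraries were checked. Totals ran from 38.6 to 56.1 M (mega) counts. EPAS1 ranged from 13.0 to 28.1 CPM (counts per 1 M counts, on TMM-scaled library sizes) in the WT libraries and from 1320 to 5852 CPM in the transfected ones. This separates WT from transfected libraries only: EPAS1 overlapped among FL, NCTAD and cIDR, and which form a library carries was not checked. The 8 adrenergic neuroblastoma markers were all detected and summed to 4279 to 5636 CPM, with MYCN at 2594 to 3411 CPM, while 8 mesenchymal markers summed to 133 to 156 CPM. The mesenchymal sum leans on TWIST1, with up to 6246 counts in a library. VIM had at most 1550, SNAI2 718 and PRRX1 10. Of 8 markers of other cells, PTPRC, PECAM1, COL1A2 and ALB had at most 6 counts in a library, KRT18 at most 36, EPCAM 43, CDH5 49 and COL1A1 329.

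Per unit of transcript length, the transcription factors and DLL3 were the abundant Notch genes and the receptors were scarce. Over the 16 libraries the deposited TPM (transcripts per 1 M) averaged 27.5 ± 3.99 (SD, n = 16) for HEY1 and 25.7 ± 2.31 for HES6. DLL3 followed at 15.5 ± 2.42 TPM and HES1 at 14.6 ± 3.11 TPM. The ranges of HEY1 and HES6 overlapped, as did those of DLL3 and HES1, and in WT the mean of HES6 (27.8 TPM) lay above that of HEY1 (26.6 TPM). JAG2, a ligand presented to neighbouring cells, came next at 2.51 ± 0.869 TPM, with all its libraries below every library of the 4 genes above it. The remaining 5 genes averaged 0.234 TPM for NOTCH3, 0.208 for DLL1, 0.106 for NOTCH1, 0.0987 for NOTCH2 and 0.0669 for JAG1, and each of these overlapped its neighbours in the order. NOTCH4, which is not among the 10 and was looked at after its values were seen, was the receptor with the highest deposited level, at 1.77 to 3.10 TPM.

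**Figure D1:**
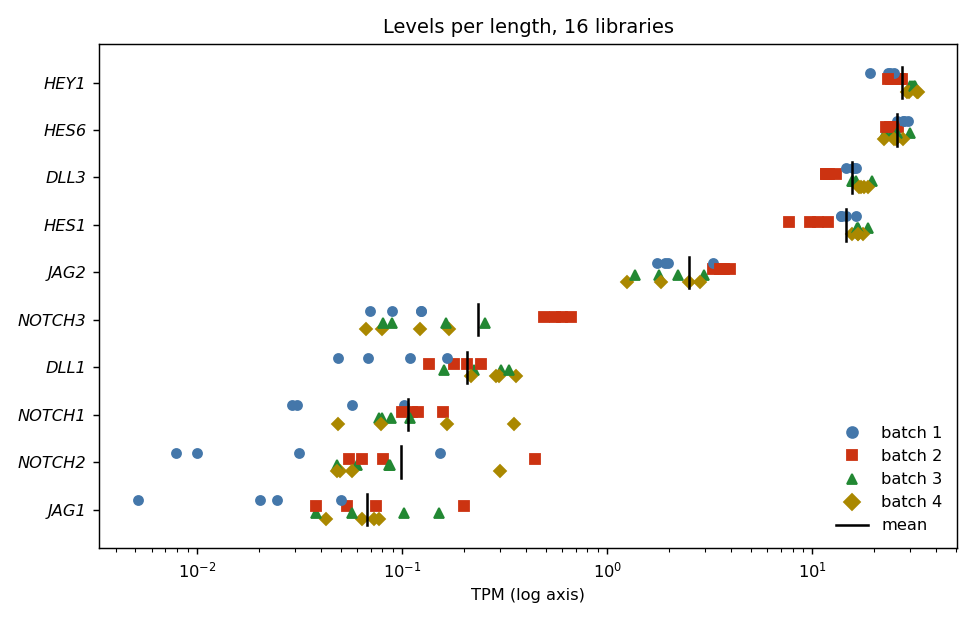
Deposited TPM (log axis) of the 10 Notch genes in each of the 16 libraries, with symbols for batches 1 to 4 and a bar at the mean. HEY1, HES6, DLL3 and HES1 average 14.6 to 27.5 TPM, JAG2 averages 2.51 TPM, and the other 5 genes average 0.0669 to 0.234 TPM.

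The depth behind these genes differed accordingly. HEY1 was supported by 1345 to 2672 counts per library, whereas JAG1 had 1 to 20, NOTCH2 3 to 39.0, DLL1 6 to 49 and NOTCH1 7 to 36. For the last 4, differences between single libraries rest on few counts. NOTCH2 also has near-identical NOTCH2NL paralogs, among which the upstream quantification could split reads, and its counts were not all whole, so its values are uncertain.

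The first question was whether any HIF-2α form altered these genes. None of the 10 was called in any of the 6 comparisons between groups by edgeR's quasi-likelihood test at a Benjamini-Hochberg adjusted p under 0.05. In these bulk libraries, fewer cells making a transcript and less transcript per cell cannot be told apart. The share of all tested genes called was 0.0102% in FL against WT, 0.0256% in NCTAD against WT and 0.0102% in cIDR against WT, and 0% in each comparison of 2 forms, so few calls were made anywhere. With the batch as a replicate block the shares rose to 0.102%, 0.456% and 0.486% against WT and were 0%, 0.0307% and 0.00512% for NCTAD against FL, cIDR against FL and cIDR against NCTAD, and still none of the 10 genes was called. In the 60 gene-by-comparison tests without the block, 0 had an unadjusted edgeR p under 0.05, and with the block 6 did. DESeq2, and limma on log2 TPM, called none of the 10 in any comparison either. For any difference among the 4 groups, the lowest edgeR p of the 10 genes was 0.429 without the block and 0.0550 with it, where 0.0102% and 0.425% of all genes were called. The libraries of 2 groups overlapped for every gene in every comparison, where the share of all genes without overlap was 0.814% in FL against WT, 1.43% in NCTAD against WT, 1.47% in cIDR against WT, 0.707% in NCTAD against FL, 0.717% in cIDR against FL and 0.712% in cIDR against NCTAD.

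Among the transcription factors, HES1 stood at 14.1, 10.2, 16.3 and 14.8 CPM in WT batches 1 to 4 and at 18.1, 11.7, 18.3 and 16.3 CPM in FL. It stood at 15.5, 9.55, 17.0 and 16.6 CPM in NCTAD and at 14.3, 7.69, 17.0 and 16.7 CPM in cIDR. FL was above WT in every batch, but the 2 groups overlapped because batch 2 was low in both. Within batches the log2 CPM of FL minus WT averaged 0.21 ± 0.10 (SD, n = 4 batches), above 0 in 4 of 4. The blocked edgeR fit gave a log2 fold change of 0.22 ± 0.09 (SE), with an unadjusted p of 0.0264 and an adjusted p of 0.920. Without the block it was 0.22 ± 0.24, which is within the spread between libraries. That value was 0.10 without WT 2, 0.14 without FL 1 and 0.15 without FL 3, and 0.34 without FL 2, none called. Leaving out WT 2 or FL 2 makes the groups unequal in batch 2, where HES1 was low, so those values carry that imbalance. In log2 CPM, HES1 was the only one of the 10 genes higher in FL than in WT in 4 of 4 batches and none was lower in all 4, where 5.35% and 3.95% of all genes did so. In cIDR against FL the blocked log2 difference of HES1 was -0.25 ± 0.09, with an unadjusted p of 0.0133, an edgeR adjusted p near 1 and 1 of 4 batches in the other direction in log2 CPM. With batch 2 left out whole, that blocked value was -0.12.

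HEY1, a repressor of the same basic helix-loop-helix class as HES1, stood at 34.5, 35.1, 44.1 and 41.9 CPM in WT and at 32.6, 40.1, 47.5 and 46.1 CPM in FL. It stood at 39.9, 40.1, 48.4 and 46.9 CPM in NCTAD and at 37.5, 35.2, 50.1 and 50.3 CPM in cIDR. Batches 3 and 4 were above batches 1 and 2 in every group, and the groups overlapped widely. Within batches, NCTAD exceeded WT in 4 of 4 by 0.17 ± 0.03 log2 CPM, and cIDR exceeded WT in 4 of 4 by 0.14 ± 0.11. On log2(TPM + 0.1) the same differences were 0.07 ± 0.07, above 0 in 4 of 4, for NCTAD and 0.07 ± 0.09, above 0 in 3 of 4, for cIDR. The blocked fit gave 0.17 ± 0.06 for NCTAD against WT, with an unadjusted p of 0.0138 and an edgeR adjusted p of 0.605. For cIDR against WT it gave 0.14 ± 0.06 with an adjusted p of 0.876. In log2 CPM, HEY1 was the only gene of the 10 higher than WT in all batches of NCTAD, where 8.86% of all genes were, and none was lower in all, as 6.48% were. On that scale it was also the only one of the 10 with a common sign in NCTAD against FL, higher in 4 of 4 batches by 0.08 ± 0.14 log2 CPM, where 6.02% of all genes were higher and 5.21% lower, but on log2(TPM + 0.1) it was above 0 in 2 of 4.

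HES6 varied less. The WT libraries ranged from 21.2 to 23.9 CPM, FL from 19.0 to 23.7, NCTAD from 18.5 to 26.4 and cIDR from 19.9 to 25.6, and in the 3 transfected groups batch 1 was the highest library. WT averaged 22.4 ± 1.15 CPM, FL 20.8 ± 2.00, NCTAD 21.3 ± 3.49 and cIDR 22.0 ± 2.48 (SD, n = 4), so in CPM the means lay within the spread of the libraries. On the deposited TPM, all FL libraries (24.4 to 25.7 TPM) lay below all WT libraries (26.3 to 30.0 TPM). The share of all genes separated in this way on TPM was not computed.

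Among the ligands, DLL3 was even across the groups, with a WT mean of 19.2 ± 2.88 CPM, an FL mean of 19.0 ± 3.66, an NCTAD mean of 19.0 ± 3.32 and a cIDR mean of 19.4 ± 3.29 (SD, n = 4). Its within-batch differences from WT averaged -0.03 ± 0.18 log2 CPM in FL, -0.02 ± 0.13 in NCTAD and 0.01 ± 0.14 in cIDR. JAG2 also had close group means: WT averaged 6.60 ± 1.81 CPM, FL 6.53 ± 2.94, NCTAD 6.85 ± 2.10 and cIDR 6.61 ± 2.24. Within batches JAG2 varied more, with FL minus WT at -0.09 ± 0.51 log2 CPM, NCTAD minus WT at 0.04 ± 0.22 and cIDR minus WT at -0.01 ± 0.16. In every group batch 2 was the lowest library of DLL3 and the highest of JAG2.

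DLL1, a ligand of the Delta type, stood at 0.125, 0.447, 0.579 and 0.922 CPM in WT batches 1 to 4 and at 0.485, 0.529, 0.795 and 0.717 CPM in FL. It stood at 0.325, 0.626, 0.887 and 0.774 CPM in NCTAD and at 0.189, 0.352, 0.436 and 0.587 CPM in cIDR. The cIDR library was the lowest of the 3 transfected libraries in every batch. The mean within-batch log2 difference was -0.70 ± 0.39 from FL and -0.69 ± 0.24 from NCTAD, with the same cIDR libraries in both. The blocked edgeR values were -0.76 ± 0.30 in each, with unadjusted p of 0.0232 and 0.0230 and adjusted p near 1, and the groups overlapped. In log2 CPM, DLL1 was the only one of the 10 genes lower in cIDR than in FL in 4 of 4 batches, as 5.00% of all genes were (none was higher in all 4, as 4.90% were), and the only one lower than in NCTAD, as 6.05% were. JAG1, the ligand with the fewest counts, had 0.0243 to 0.430 CPM over the 16 libraries. It was higher in cIDR than in NCTAD in 4 of 4 batches, as 4.38% of all genes were, by 0.44 ± 0.26 log2 CPM on at most 20 counts per library, but on log2(TPM + 0.1) the mean difference was -0.15 ± 0.66, above 0 in 3 of 4.

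Among the receptors, NOTCH1 stood at 0.397, 0.614, 0.555 and 0.790 CPM in WT and was lower in cIDR in 4 of 4 batches, at 0.217, 0.528, 0.457 and 0.406 CPM. The mean difference was -0.53 ± 0.35 log2 CPM. NOTCH2 was higher in cIDR than in WT in 4 of 4 batches by 0.27 ± 0.21 log2 CPM. On log2(TPM + 0.1) the difference was -0.34 ± 0.36 for NOTCH1, below 0 in 3 of 4, and -0.010 ± 1.01 for NOTCH2, above 0 in 3 of 4, so neither kept its sign in every batch. Neither receptor passed an unadjusted p of 0.05 in either edgeR fit, and cIDR and WT overlapped for both. Against WT, 2 of the 10 genes (HEY1 and NOTCH2) were thus higher in cIDR in 4 of 4 batches, beside 10.6% of all genes, and 1 (NOTCH1) was lower, beside 7.15%. For NOTCH3 the WT mean was 1.43 ± 1.26 CPM, the FL mean 1.35 ± 1.49, the NCTAD mean 1.20 ± 1.18 and the cIDR mean 1.39 ± 1.62, and within batches its log2 CPM had no common sign in any form against WT.

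On log2(TPM + 0.1), a scale that counts each gene per length and relative to the library's other transcripts, other genes had a common sign in 4 of 4 batches. In FL against WT, HES1 was higher by 0.17 ± 0.01 (SD, n = 4 batches), beside 4.07% of all genes higher in all batches, while HES6 (-0.15 ± 0.10) and NOTCH1 (-0.38 ± 0.33) were lower, beside 4.61%. In NCTAD against WT, HEY1 was higher, beside 3.34% of all genes, while DLL3 (-0.16 ± 0.11) and NOTCH3 (-0.40 ± 0.34) were lower, beside 16.1%. In cIDR against WT no member had a common sign, where 3.94% of all genes were higher and 18.8% lower. HES1 was lower than in FL in 4 of 4 batches of NCTAD (-0.19 ± 0.10) and cIDR (-0.28 ± 0.24), and DLL1 in cIDR (-0.50 ± 0.17). All genes gave 9.21% lower and 2.83% higher for NCTAD against FL, and 8.32% lower and 2.86% higher for cIDR against FL. Against NCTAD, cIDR was lower in 4 of 4 batches for DLL1 (-0.47 ± 0.21) and HES1 (-0.09 ± 0.16), beside 4.60% of all genes lower and 5.43% higher. The 2 scales thus shared 4 of these common signs: HES1 higher in FL and HEY1 higher in NCTAD than in WT, and DLL1 lower in cIDR than in FL and NCTAD. On log2(TPM + 0.1) the median of all genes lay at -0.03 for FL minus WT, -0.07 for NCTAD minus WT and -0.07 for cIDR minus WT, where log2 CPM gave 0.01, 0.02 and 0.01.

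The second comparison set batch 2 against batches 1, 3 and 4. Against the mean of those batches, the 3 receptors and JAG2 were higher in batch 2, and HES1, DLL3 and HEY1 were lower. HEY1 averaged 37.6 CPM in batch 2 and 36.1 in batch 1, and NOTCH2 0.561 in batch 2 and 0.579 in batch 3. Neither of them stood apart from every other batch. NOTCH3 rose 5.28-fold and JAG2 1.78-fold, while HES1 was 1.66-fold and DLL3 1.42-fold lower. In all, 7 of the 10 genes were called by edgeR with group and batch as terms, 4 higher and 3 lower, beside 53.9% of all tested genes called, 27.7% higher and 26.1% lower. With the background that high, the count is not read as a property of the Notch genes. The libraries of batch 2 did not overlap the other 12 for 4 of the 10 genes, 2 higher and 2 lower, beside 29.0% of all genes, 14.4% higher and 14.6% lower. Batch 2 is 1 batch, so the test compares its 4 libraries with the other 12 and not a repeated condition.

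**Figure D2:**
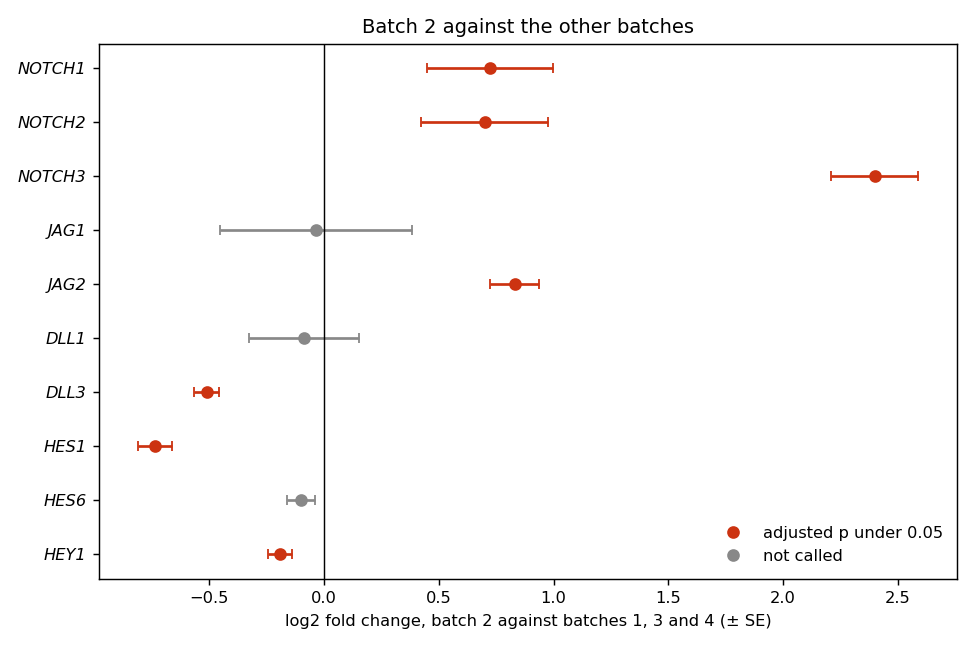
Log2 fold change of batch 2 against batches 1, 3 and 4 for the 10 Notch genes, as points with SE bars from the edgeR fit with group and batch as terms, red where the adjusted p was under 0.05. NOTCH3 lies at 2.40, JAG2, NOTCH1 and NOTCH2 between 0.70 and 0.83, and HES1 at -0.74.

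NOTCH3, a receptor best known from vascular smooth muscle, moved furthest of the 10. Its WT libraries of batches 1 to 4 stood at 0.564, 3.30, 0.869 and 0.988 CPM and its FL libraries at 0.485, 3.56, 0.903 and 0.458 CPM. Its NCTAD libraries stood at 0.581, 2.97, 0.525 and 0.710 CPM and its cIDR libraries at 0.812, 3.82, 0.519 and 0.429 CPM. Each batch 2 library was above all 12 others, in every group. The log2 fold change was 2.40 ± 0.19 (SE) with an edgeR adjusted p of 9.3e-08, and it ranked 174 of 19530 genes by rise. Among the 4 receptors, NOTCH3 made up 17.1 to 25.3% of the summed TPM in batch 2 and 2.16 to 7.45% elsewhere. NOTCH4 moved the other way, from 2.08 to 3.10 TPM elsewhere to 1.77 to 2.34 TPM in batch 2, with a log2 fold change of -0.37 ± 0.12 and an edgeR adjusted p of 0.0186.

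NOTCH1 and NOTCH2 were called higher with less margin. NOTCH1 had a log2 fold change of 0.72 ± 0.28 with an edgeR adjusted p of 0.0382, and NOTCH2 one of 0.70 ± 0.28 with an adjusted p of 0.0443. Both overlapped the other batches: the batch 2 libraries of NOTCH1 stood at 0.528 to 0.685 CPM against 0.163 to 0.790 elsewhere, and those of NOTCH2 at 0.428 to 0.764 against 0.0728 to 0.726. Neither call held in DESeq2, where the adjusted p was 0.0562 for NOTCH1 and 0.0631 for NOTCH2. Of 9 alternatives that kept all libraries, DESeq2 among them, 6 ended the NOTCH1 call, with log2 fold changes of 0.031 to 1.20 over the 9. For NOTCH2, 5 of 9 ended the call and 1 turned the sign. Leaving out 1 library ended the NOTCH1 call in 9 of 16 cases (WT 3, FL 2 and 3, NCTAD 1, 2 and 3, and cIDR 1, 2 and 4), with edgeR adjusted p of 0.0534 to 0.191. It ended the NOTCH2 call in 11 of 16 (WT 3 and 4, FL 1, 2 and 4, NCTAD 1, 2 and 3, and cIDR 2, 3 and 4), with adjusted p of 0.0570 to 0.233. NOTCH2 was lowest in batch 1, at 0.0728 to 0.271 CPM, and against batch 3 alone its log2 fold change was -0.030.

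JAG2 stood at 5.22, 9.25, 5.79 and 6.13 CPM in WT batches 1 to 4 and at 7.33, 10.3, 4.62 and 3.84 CPM in FL. It stood at 6.53, 9.91, 5.56 and 5.40 CPM in NCTAD and at 5.74, 9.96, 5.29 and 5.44 CPM in cIDR. Batch 2 was the highest library of every group, and its lowest value, 9.25 CPM, was above the highest value elsewhere, 7.33 CPM. The log2 fold change was 0.83 ± 0.11 with an edgeR adjusted p of 1.2e-05. DLL3 went the other way, with 15.2, 14.02, 14.3 and 14.6 CPM in the WT, FL, NCTAD and cIDR libraries of batch 2 against 18.7 to 22.4 CPM elsewhere. Its log2 fold change was -0.51 ± 0.05 with an adjusted p of 1.7e-06. DLL1 (-0.09 ± 0.24) and JAG1 (-0.04 ± 0.42) were not called, with wide SEs at this depth.

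Of the targets, HES1 had its lowest library in batch 2 in every group, and all 4, from 7.69 to 11.7 CPM, were below the other 12, from 14.1 to 18.3 CPM. Its log2 fold change was -0.74 ± 0.07 with an edgeR adjusted p of 1.2e-06. HEY1 fell by 0.19 ± 0.05 on the log2 scale with an edgeR adjusted p of 0.00544, but its batch 2 libraries overlapped the others, and against batch 1 alone the value was 0.059. The HEY1 call was also lost with limma on either TPM scale. HES6 was not called, at -0.10 ± 0.06. The batch 2 difference did not depend detectably on the group: an edgeR interaction of batch 2 with group called 0 of the 10 genes, none with an unadjusted p under 0.05, beside 0.0307% of all genes, and the lowest unadjusted p was 0.0946, for HES1.

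Markers of other states moved with batch 2. Of 15 hypoxia genes, 13 were called higher in batch 2, where 27.7% of all genes were, and their summed level was 1917 to 2792 CPM there against 939 to 1313 CPM elsewhere. This list was measured because earlier results of these same data had shown hypoxia genes apart in batch 2. The count is therefore a description and not independent support. PFKFB4 and PDK1, which control sugar use, rose by 2.24 ± 0.05 and 2.81 ± 0.08 on the log2 scale, and BNIP3, which promotes removal of mitochondria, by 1.73 ± 0.06. EPAS1 itself was not called, at -0.45 ± 0.26 with an edgeR adjusted p of 0.165, a mean over unlike groups. In batch 2 it was the highest library of WT (28.1 CPM against 13.0 to 17.3) and the lowest of NCTAD (1320 CPM) and cIDR (2189 CPM). Each of these rests on 1 batch 2 library per group, so a dependence on the group cannot be decided. Of 8 markers of other cells, 4 passed the filter and 3 of these (CDH5, COL1A1 and KRT18) were called higher, beside the same 27.7%, with a summed level of the 8 of 6.24 to 8.10 CPM in batch 2 against 2.19 to 3.64 elsewhere. PTPRC, PECAM1, COL1A2 and ALB were at or near 0 throughout. Adrenergic markers summed to 4909 to 5342 CPM in batch 2 and 4279 to 5636 CPM elsewhere, and mesenchymal ones to 133 to 152 and 136 to 156 CPM. Within these overlapping sums single genes differed: 4 of 8 adrenergic markers were called higher and 2 lower, and 2 of 7 tested mesenchymal markers higher and 3 lower. The part of these values in the Notch results was not tested.

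The genes whose log2 CPM profile lay closest to NOTCH3 over the 16 libraries, each centred on its own mean, were CSDC2 with a root mean square distance of 0.28, LURAP1L-AS1 with 0.32, MIR3681HG with 0.34, CDK18 with 0.36 and ADGRA2 with 0.36. NOTCH3 was used because its SD of log2 CPM, 1.11, was the highest of the 10. All 6 genes were measured in the same 16 libraries, so they share depth and batch.

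The rest of the pathway was followed in a list of 75 further genes, of which 62 were tested. In batch 2, 41 of the 62 were called, 15 higher and 26 lower, beside the 53.9% of all genes, and the median log2 fold change of the 62 was -0.09 against 0.03 for all genes. Of 9 genes for receptor cleavage, 1 rose (APH1B) and 7 fell, among them PSEN2 by 0.64 and ADAM10 by 0.26 on the log2 scale. Of 6 sugar transferases that tune ligand choice, 2 rose and 3 fell. MFNG went from 0.0645 to 0.395 CPM elsewhere to 0.999 to 1.496 CPM in batch 2, a log2 fold change of 3.04 ± 0.25, while LFNG fell by 0.56 ± 0.07. A level of 3 counts is 0.0528 to 0.0812 CPM, depending on the library. The size of the MFNG rise thus rests on low counts outside batch 2. APH1B, PSEN2, ADAM10, MFNG and LFNG were picked after their values were seen.

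In the nucleus, RBPJ was not called in batch 2, at 0.09 ± 0.06. The counts by role are read beside the 27.7% of all genes called higher and 26.1% called lower. Of the 9 genes of its activating complex 2 rose and 5 fell, including the acetyltransferase CREBBP at -0.68 ± 0.06. Of 15 corepressors 4 rose and 4 fell, a share near that of all genes. TLE2 and TLE3, Groucho-type corepressors recruited by HES proteins, went in opposite directions, at 1.31 ± 0.07 and -0.79 ± 0.06. Of 15 ubiquitin ligases and endocytic regulators 3 rose and 5 fell. Of 3 further targets tested, HES7 rose by 2.45 ± 0.17, from 0.194 to 0.511 CPM elsewhere to 1.61 to 1.88 CPM, while NRARP, a feedback inhibitor induced by Notch, was at 0.06 ± 0.07 and not called. HES7 and NRARP were also picked after their values were seen.

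Among the differentiation factors, INSM1, a zinc-finger factor of neuroendocrine cells, had 10.5 to 13.2 CPM in batch 2 against 1.08 to 1.73 CPM elsewhere, with no overlap and a log2 fold change of 3.19 ± 0.10.

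**Figure D3:**
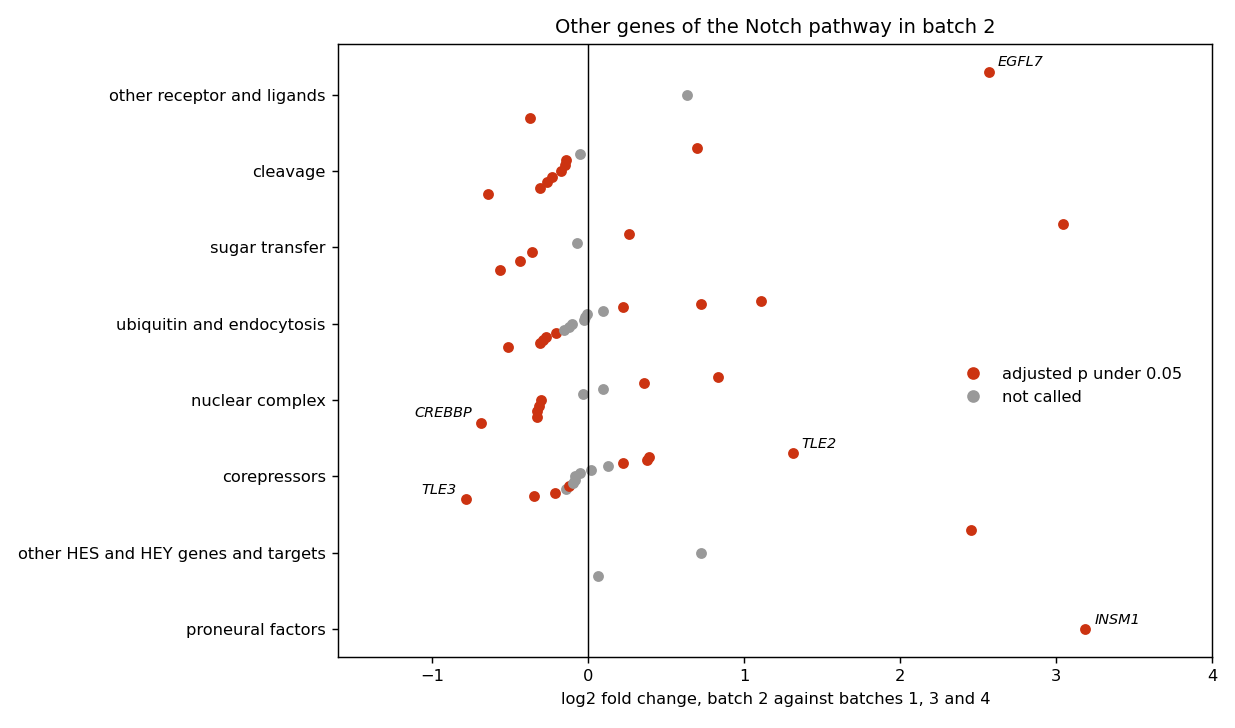
Log2 fold change of batch 2 against batches 1, 3 and 4 for tested genes of the wider Notch pathway, by role, 1 point per gene, red where the edgeR adjusted p was under 0.05. INSM1 (3.19), MFNG (3.04), EGFL7 (2.57) and HES7 (2.45) lie furthest to the right, and 7 of the 9 cleavage genes were called lower.

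In the comparisons between groups, EGFL7 was the only one of the 62 pathway genes called. EGFL7 encodes a secreted protein reported to bind Notch receptors and best known from endothelium. It stood at 2.13, 14.5, 1.81 and 1.47 CPM in WT batches 1 to 4 and at 7.86, 32.04, 2.21 and 3.25 CPM in FL. It stood at 15.1, 29.8, 4.72 and 5.59 CPM in NCTAD and at 14.1, 36.5, 5.73 and 6.28 CPM in cIDR. Every transfected library was above the WT library of its batch, while the groups overlapped across batches because batch 2 was high in all 4. With the batch as a replicate block, EGFL7 rose 3.36-fold in NCTAD (1.75 ± 0.24, edgeR adjusted p 0.00220) and 3.70-fold in cIDR (1.89 ± 0.23, adjusted p 0.000984), where 0.456% and 0.486% of all genes were called. With a whole batch left out and the block kept, the log2 value ran from 1.38 to 2.03 in NCTAD and from 1.63 to 2.14 in cIDR, each called. Without the block, leaving out 1 library moved it from 0.75 (without NCTAD 2) to 2.93 (without WT 2) in NCTAD and from 0.79 (without cIDR 2) to 3.12 (without WT 2) in cIDR, none called. Leaving out 1 batch 2 library makes the groups unequal in the batch where EGFL7 was high. These unblocked ranges therefore carry that imbalance. In the same blocked fit, 6 of 15 hypoxia genes in NCTAD and 8 of 15 in cIDR were called higher than WT, and 0 of 15 in FL. Their summed level ranged from 939 to 1917 CPM in WT, 1042 to 2351 in FL, 1208 to 2337 in NCTAD and 1181 to 2792 in cIDR. Of 19 cell-state markers, the adrenergic genes DBH (0.61 ± 0.07 in NCTAD, 0.51 ± 0.07 in cIDR) and TH (1.27 ± 0.17 and 1.06 ± 0.17) were also called higher. The part of these genes' differences in the EGFL7 result was not tested. In FL the EGFL7 value was 1.13 ± 0.24 with an adjusted p of 0.121, not called. Whether FL differs from the other forms was tested directly: neither NCTAD against FL (0.62 ± 0.22) nor cIDR against FL (0.76 ± 0.22) passed, with edgeR adjusted p of 0.996 and 0.937. Without the block no pathway gene was called in any comparison against WT, and EGFL7 had an adjusted p near 1. The endothelial marker CDH5 was detected at no more than 49 counts per library.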

How the data were processed

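Gene expression was measured by poly(A) RNA-seq in 16 libraries, 4 groups in 4 batches. The deposited estimated counts and deposited TPM values come from salmon, per the file headers and names; the submitters' processing notes list fastp, STAR, Salmon, featureCounts and build GRCh38 without versions. The annotation release is not given in the sources used here. Estimated counts (15.5% not whole) were rounded, and filterByExpr by group kept 19530 of 63187 genes. edgeR 4.0.16 (R 4.3.3; TMM, quasi-likelihood) tested the groups in 1 fit over 16 libraries, with Benjamini-Hochberg adjustment over all tested genes and calls at adjusted p under 0.05. A fold change SE is its size divided by the square root of F. CPM used TMM-scaled totals, and log2 CPM a prior count of 2. Batch 2 was compared in a fit with group and batch. The script was tested on simulated data.

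The labels make the replicate number a batch. Deviations from group means correlated with a mean r of 0.308 (0.0674 to 0.712) within batches and -0.151 between them, and the pairing was taken from the labels. No replicates were copies: chi-square per degree of freedom was at least 7.24.

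Members, lists and tests were chosen with earlier results of these data known. The 10 Notch genes and EPAS1 are all named. Of the wider pathway, genes called between groups and up to 3 per direction in batch 2 with the lowest adjusted p are named, as are 3 hypoxia genes and the 5 genes most like the member of highest SD. Others are marked as picked after their values were seen, and 1 gene that the rule names is not reported here. Alternatives were the replicate block, other size factors, DESeq2 1.42.0, no filter, at least 10 counts in every library, limma 3.58.1 on log2(TPM + 1) and log2(TPM + 0.1), batch 2 against single batches, and libraries or batches left out. Promoter windows are from RefSeq (GRCh38.p14), matched by symbol for 7 of the 10. Figures used matplotlib 3.10.9 in Python 3.11.15.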

Additional observations from a re-analysis of the deposited data

Results flagged for a closer look

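In 5 of the 40 sets of 4 libraries formed by the 10 Notch genes in the 4 groups, 1 library stood far from the other 3, its gap to the nearest of them taking up 0.845 to 0.924 of the whole range, above Dixon's 95% critical value. All 5 were batch 2 libraries, and each was the highest of its set. NOTCH3 was flagged in every group, at 3.30 CPM in WT, 3.56 CPM in FL, 2.97 CPM in NCTAD and 3.82 CPM in cIDR. JAG2 was flagged in cIDR, at 9.96 CPM. Chance flags about 1 in 20 such sets.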

How the results depend on the processing

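No Notch gene was called between groups under any alternative run, and adding the batch as a replicate block changed no call of a Notch gene: 0 of 10 in each comparison with and without it. The block raised the number of all genes called from 2 to 20 in FL against WT, from 5 to 89 in NCTAD against WT and from 2 to 95 in cIDR against WT. In batch 2 the count of Notch genes called, 7, became 4 with limma on either TPM scale (4 at each pseudocount), and ranged from 5 to 8 with single libraries left out. NOTCH3, JAG2, HES1 and DLL3 kept their calls under every alternative run, but the log2 fold change of NOTCH3 was 0.50 on log2(TPM + 1) and 1.66 on log2(TPM + 0.1), since a pseudocount shrinks a low gene. The sign turned for NOTCH2 against batch 3 alone (-0.030), for JAG1 against batch 1 alone (0.91), on log2(TPM + 1) (0.043) and on log2(TPM + 0.1) (0.24), for DLL1 against batch 1 alone (0.84) and for HEY1 against batch 1 alone (0.059). The cause was not tested. With single libraries left out, JAG1 ranged from -0.39 to 0.13 and DLL1 from -0.18 to 0.032. HEY1 was not called on either TPM scale (adjusted p 0.123 and 0.126), and HES6 was called without WT replicate 1 (adjusted p 0.0472) and against batch 1 alone (0.0105), as DLL1 was (0.0405). NOTCH1, NOTCH2, DLL1 and JAG1 could not be tested where every library had to hold 10 counts, and their depth limits what can be seen.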
